A study of Homo sapiens with 6 samples.

Results

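The genes described are the 10 MHC class II chain genes of the human HLA-D region whose symbols were listed by name, HLA-DRA, HLA-DRB1, HLA-DRB5, HLA-DPA1, HLA-DPB1, HLA-DQA1, HLA-DQB1, HLA-DMA, HLA-DMB and HLA-DOA. All 10 were found among the 17187 gene symbols of the deposited table. RNA was sequenced from HT-1080, an established human fibrosarcoma cell line labelled wild type. The IFNg group was 3 libraries from cells given recombinant interferon gamma at 10 ng/ml for 8 h, and the control group was 3 libraries from cells given PBS. The study asks how CD8+ T cells bear on ferroptosis of tumour cells, and its 1 comparison asks which tumour cell transcripts differ after IFNg. Separate cultures for the 3 libraries of a group are not stated in the labels, and p-values therefore cover the spread between these libraries only, which may be technical.

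MHC class II molecules present peptides from the endosomal pathway to CD4+ T cells, and each is a pair of an alpha and a beta chain. The classical pairs DR, DP and DQ reach the cell surface, whereas HLA-DM works in the endosome, where it removes the invariant chain fragment CLIP and exchanges peptides, and HLA-DO inhibits HLA-DM. Antigen-presenting cells make class II constantly. Most other cells, fibroblasts among them, make it only after IFNg, which induces CIITA, a coactivator that binds RFX and NF-Y proteins on the X and Y boxes of class II promoters.

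Values are normalised read counts, that is, whole reads divided by 1 size factor per library, so a value near 1 stands for about 1 read. Libraries held 59556948 (IFNg 3) to 83501954 (control 2) reads. Libraries numbered 3 were the lowest of their group on the second principal component of all genes tested, at -60.66 for IFNg 3, against 35.31 and 56.27 for IFNg 1 and 2, and at -24.97 for control 3, against 5.33 and -11.28 for control 1 and 2. The 5 class II genes called below were also called without both of them, by the same test. The label of the cells was checked on marker genes. Of 8 mesenchymal markers listed, 7 were found and THY1 was not. All 7 were abundant, with a summed value of 597311 to 617454 in IFNg and 657494 to 682411 in control. Of these 7, 0 rose by limma, edgeR or DESeq2, with 0 higher at an unadjusted limma p under 0.05. Of all genes tested, limma called 3.27% higher and 1.05% lower. The urokinase gene PLAU fell by each tool (log2 difference -0.53 ± 0.10, limma adjusted p = 0.00709). SPARC was lower only at an unadjusted limma p under 0.05 (log2 difference -0.24 ± 0.11, limma adjusted p = 0.296). Of 14 immune cell markers, 8 were found, with a summed value of 387 to 481 in IFNg and 488 to 671 in control. Limma tested 5 of those 8, edgeR 3 and DESeq2 6. By each tool 0 rose or fell, and 0 had an unadjusted limma p under 0.05. Most of the sum came from ITGAX (42.9 to 182 in IFNg, 91.5 to 278 in control), CSF1R (138 to 177 in IFNg, 196 to 264 in control) and LYZ (97.6 to 151 in IFNg, 114 to 157 in control). The leukocyte marker PTPRC was 44.6, 1.03 and 0 in IFNg and 8.57, 0 and 10.7 in control. The monocyte marker CD14 had 28 reads in IFNg 2 and 0 in each other library. The B cell marker CD79A had 0 reads in IFNg and 8 in control, and MS4A1 was not analysed here.

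The stretches before the transcription starts of 6 of these genes are shown, because class II genes are known to share the X and Y boxes, and because HLA-DPA1 and HLA-DPB1, a chain pair, differed in response. Each is the 120 bases at positions -150 to -31 from the start, from RefSeq on GRCh38.p14. Capitals mark matches, on either strand, to a core of the X box (AGNAACNGA) or of the Y box (ATTGG, or CCAAT on the other strand).
HLA-DRB1, chr6:32589879-32589998, minus strand: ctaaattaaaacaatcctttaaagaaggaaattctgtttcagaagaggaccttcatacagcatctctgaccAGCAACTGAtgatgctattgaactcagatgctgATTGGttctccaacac
HLA-DOA, chr6:33009622-33009741, minus strand: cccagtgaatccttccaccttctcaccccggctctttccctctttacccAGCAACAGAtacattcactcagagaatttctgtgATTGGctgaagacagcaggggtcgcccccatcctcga
HLA-DMA, chr6:32953128-32953247, minus strand: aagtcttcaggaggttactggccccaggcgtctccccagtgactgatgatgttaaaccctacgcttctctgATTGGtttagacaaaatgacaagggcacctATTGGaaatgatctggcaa
HLA-DMB, chr6:32941059-32941178, minus strand: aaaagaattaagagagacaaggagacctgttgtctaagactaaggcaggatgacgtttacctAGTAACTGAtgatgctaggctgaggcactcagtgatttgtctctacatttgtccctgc
HLA-DPA1, chr6:33073680-33073799, minus strand: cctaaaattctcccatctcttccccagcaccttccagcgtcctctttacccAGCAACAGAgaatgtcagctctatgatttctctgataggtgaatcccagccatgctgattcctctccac
HLA-DPB1, chr6:33075840-33075959, plus strand: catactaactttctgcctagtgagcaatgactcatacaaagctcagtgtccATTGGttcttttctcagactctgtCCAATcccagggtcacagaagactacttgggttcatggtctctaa

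The RefSeq set used here held 10 start windows, of 250 bases before to 50 after a start, for 9 of the 10 genes. It held none for HLA-DRA, which is therefore missing from the stretches shown and from the counts that follow. Of these 10 windows, 6 held the X core and 8 the Y core. Among all 35116 windows of the same length, 4.48% held the X core and 34.6% the Y core. The cores come from boxes known in class II genes, so a higher share in class II windows is not a separate result. In HLA-DRB1, HLA-DRB5, HLA-DQA1 and HLA-DOA the Y core began 33 or 34 bases after the X core on the same strand. Both cores on 1 strand with starts 20 to 40 bases apart occurred in 0.0769% of all windows. HLA-DPB1 held the Y core, at -99 on its own strand and -75 on the other, and no match to these letters of the X core. The same holds for HLA-DMA, which rose, and for HLA-DQB1, in that both had the Y core and no X core match. Near matches to the X core were not counted, such as agtgactga in HLA-DMA and agagacaga in HLA-DQB1. HLA-DPA1, which rose, had the X core at -99 and no Y core in the window shown, and neither core in its other window. Whether these letters bear on the responses was not tested. A match is a description of letters and not a measured site.

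Taken over all 10 genes, the summed normalised read count was 3131, 3166 and 3233 in IFNg 1, 2 and 3, against 584, 791 and 564 in control 1, 2 and 3. HLA-DRA rose most in absolute reads, and HLA-DPA1, HLA-DMA, HLA-DMB and HLA-DRB1 rose with it. HLA-DPB1 did not pass the test, and the DQ genes and HLA-DRB5 were read only a few times. By limma on log2(value + 1), with Benjamini-Hochberg adjustment over 15546 genes at 0.05, 5 of the 10 genes rose, and 3.27% of all genes tested were called higher. edgeR, which tested 7 of the 10, called 5 higher, against 3.47% of its genes, and DESeq2 called 6 of the 10, against 4.44%. The other 4 genes tested by limma did not pass, and HLA-DQA1 was removed by the filter on low values (at least 0.5 in 3 libraries). In limma 0 of the 10 fell, against 1.05% of all genes tested, and 0 were lower at an unadjusted p under 0.05. By edgeR (7 tested) and DESeq2 (10 tested) 0 fell as well, against 1.22% and 2.09% of their genes. HLA-DRB5 and HLA-DQB1 were kept only through their values in IFNg. In 8 of the 10 genes every IFNg library was above every control library, against 10.7% of all genes tested. In 0 of the 10 every IFNg library was below every control library, against 9.28%. The 8 include HLA-DRB5 and HLA-DQB1, for which the filter fixed this outcome in advance. The 10 include HLA-DQA1, which the filter removed and the shares over all genes leave out. In bulk RNA a rise in all cells and a rise in a share of them cannot be told apart. The median log2 difference, IFNg minus control, was 3.02 over the 10 genes and -0.02 over all genes in the table. The median of the 10 lies between HLA-DRB5 and HLA-DQB1, which have 0 control reads, so the pseudocount sets it. It was 3.55 with a pseudocount of 0.5, 2.19 with a pseudocount of 5, and 2.96 with the 3 genes at 0 control reads set to their fold over 3 control reads.

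**Figure D1:**
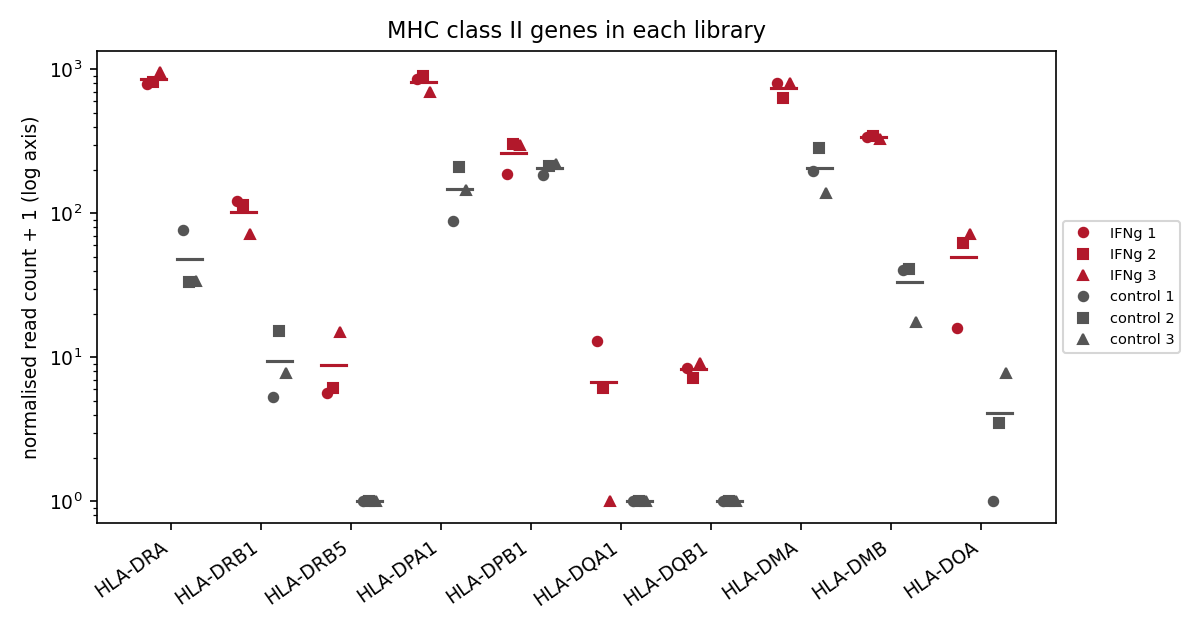
Normalised read count + 1 (y axis, log scale) of the 10 class II genes in each library, IFNg in red and control in grey; marker shape is the library number and the bar is the group mean. The groups overlap for HLA-DPB1 and HLA-DQA1, and HLA-DRB5, HLA-DQA1 and HLA-DQB1 have 0 reads in every control library.

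HLA-DRA encodes the nearly invariant alpha chain of HLA-DR. It was 793, 814 and 952 in IFNg 1, 2 and 3, against 75.0, 32.6 and 33.1 in control 1, 2 and 3. The groups were far apart, and control 1 was the highest of the controls. The mean was 853 ± 86.3 in IFNg and 46.9 ± 24.3 in control (SD, n = 3 each), a ratio of 18.2. The log2 difference was 4.26 ± 0.36 (SE; limma adjusted p = 9.88e-06).

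HLA-DRB1 encodes the main beta chain partner of HLA-DRA. It was 120, 113 and 70.7 in IFNg, against 4.28, 14.2 and 6.81 in control. Every IFNg library was above every control library, though the control values rest on only 4, 17 and 7 reads. The log2 difference was 3.54 ± 0.61 (limma adjusted p = 0.00485).

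HLA-DRB5 encodes a second DR beta chain that only some HLA haplotypes carry. It had 5, 5 and 12 reads in IFNg and 0 in each control library. Set against 3 reads over the control group, that gives a bound of 7.97-fold, with the IFNg reads taken as counted. The gene did not pass in limma (log2 difference 3.01 ± 1.19, adjusted p = 0.241). Without IFNg 3 the bound was 5.15-fold. In the GENCODE 29 transcripts 8.42% of the 50-base windows of HLA-DRB5 are identical to a stretch of HLA-DRB1, and 8.64% of those of HLA-DRB1 to one of HLA-DRB5. How reads that fit both were counted is not given in the sources used here, so the HLA-DRB5 reads are uncertain.

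HLA-DPA1 and HLA-DPB1 encode the alpha and beta chains of HLA-DP and start close together on opposite strands. HLA-DPA1 was 858, 891 and 695 in IFNg, against 87.8, 209 and 143 in control. All IFNg libraries were above all controls, and the log2 difference was 2.54 ± 0.31 (limma adjusted p = 0.000288). HLA-DPB1 was 187, 300 and 298 in IFNg, against 182, 211 and 220 in control. IFNg 1 lay within the range of the controls, so the groups overlapped. The HLA-DPB1 log2 difference was 0.32 ± 0.29 (limma adjusted p = 0.671), with a 95% interval of -0.31 to 0.96 that lies below the 1.87 to 3.22 of HLA-DPA1. Exons of the 2 genes overlap by 31 bases in GENCODE 29, 1.82% of the exon bases of HLA-DPA1 and 1.99% of those of HLA-DPB1. The use of strand in counting is not given, so reads in that overlap cannot be assigned.

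HLA-DQA1 and HLA-DQB1 encode the chains of HLA-DQ and were at the edge of detection. HLA-DQA1 had 13, 5 and 0 reads in IFNg and 0 in each control library. IFNg 3 was at 0 like the controls. Set against 3 reads over the control group, the pooled IFNg reads of HLA-DQA1 gave a bound of 6.52-fold, with these reads taken as counted. Of its 18 reads 13 came from IFNg 1, and without that library the bound was 2.87-fold. HLA-DQB1 had 8, 6 and 7 reads in IFNg and 0 in each control library. The bound for HLA-DQB1 was 7.60-fold on the same terms, and the gene did not pass in limma (log2 difference 3.04 ± 1.16, adjusted p = 0.221). In GENCODE 29, 9.93% of the exon bases of HLA-DQB1 overlap its antisense gene HLA-DQB1-AS1. With so few reads the size of a DQ response could not be measured.

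HLA-DMA and HLA-DMB encode the 2 chains of the peptide exchanger HLA-DM. HLA-DMA was 795, 628 and 796 in IFNg, against 195, 281 and 137 in control. It was the most read of these genes in control 1 and 2, and its log2 difference was 1.90 ± 0.28 (limma adjusted p = 0.00134). HLA-DMB was 339, 343 and 329 in IFNg, against 39.6, 40.1 and 16.5 in control. The IFNg values lie close together, with an SD of 7.25, and the log2 difference was 3.45 ± 0.42 (limma adjusted p = 0.000279). A further GENCODE 29 gene on the same strand, AL645941.2, covers 15.5% of the exon bases of HLA-DMA and 31.4% of those of HLA-DMB.

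HLA-DOA encodes the alpha chain of the HLA-DM inhibitor HLA-DO. It was 14.9, 61.0 and 70.7 in IFNg, against 0, 2.51 and 6.81 in control. All IFNg libraries were above all controls, with IFNg 1 far below the other IFNg libraries. The log2 difference was 3.78 ± 0.99 and did not pass in limma (adjusted p = 0.0550) or edgeR (0.0712), but passed in DESeq2 (0.00577) and, in limma, without control 3 (0.0197). HLA-DOB, the beta chain of HLA-DO, was 84.5, 125 and 189 in IFNg, against 10.7, 50.1 and 25.3 in control. It passed narrowly in limma (log2 difference 2.34 ± 0.59, adjusted p = 0.0467) and passed in DESeq2 (0.00577), but not in edgeR (0.0678). HLA-DOB lost the limma call without control 1 (0.151), IFNg 1 (0.0860), IFNg 2 (0.138), IFNg 3 (0.185) or both libraries numbered 3 (0.105). The limma call was also lost with a pseudocount of 0.5 (0.052), without the filter (0.0583) and without the intensity trend (0.198). It was kept in the other limma alternatives run, such as the replicate block (0.00326).

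**Figure D2:**
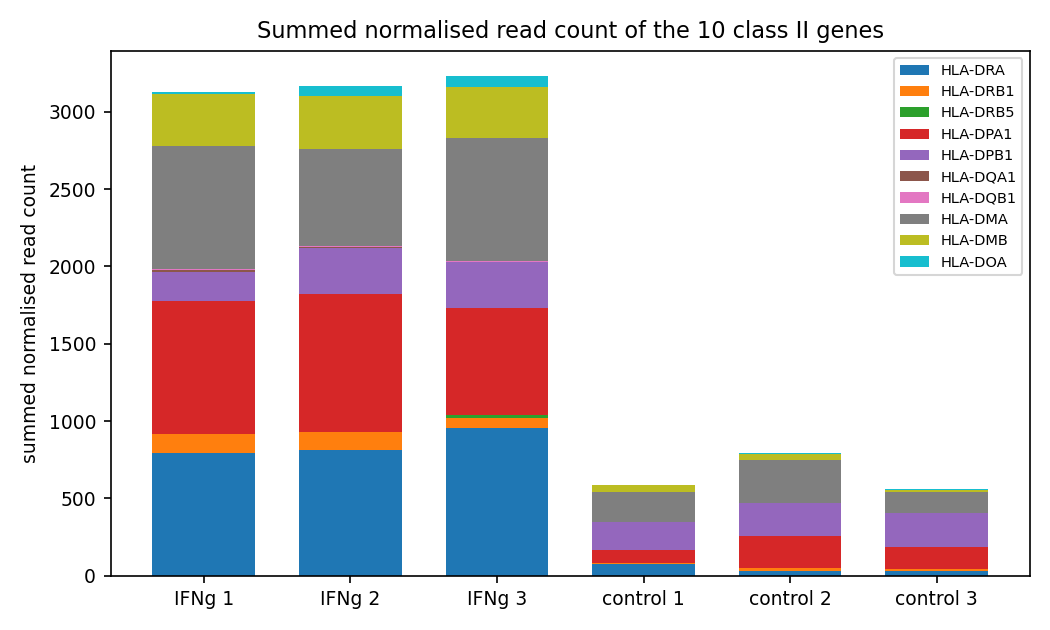
Stacked normalised read count of the 10 class II genes (y axis, linear from 0) in each library, IFNg on the left and control on the right. The sums are 3131 to 3233 in IFNg and 564 to 791 in control, and HLA-DRA takes a larger and HLA-DPB1 a smaller share of every IFNg bar than of any control bar.

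The mix of class II reads differed between the groups. HLA-DRA made up 25.3%, 25.7% and 29.5% of the reads of the 10 genes in IFNg 1, 2 and 3, against 12.8%, 4.12% and 5.87% in control 1, 2 and 3. HLA-DPB1 made up 5.96%, 9.46% and 9.21% in IFNg, against 31.2%, 26.7% and 39.0% in control. Neither share overlapped between groups. The shares of HLA-DMA (19.8% to 25.4% in IFNg, 24.4% to 35.6% in control) and HLA-DPA1 (21.5% to 28.1% in IFNg, 15.0% to 26.4% in control) did. Shares of the remaining genes are not given, so HLA-DRA and HLA-DPB1 need not be the only genes whose shares separated. The share of a gene that changes little falls when the other genes rise.

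Per kilobase of merged exon in GENCODE 29, the level in IFNg was 667 ± 67.4 for HLA-DRA, 659 ± 86.0 for HLA-DMA, 478 ± 61.4 for HLA-DPA1, 241 ± 5.19 for HLA-DMB, 168 ± 41.4 for HLA-DPB1 and 82.2 ± 21.6 for HLA-DRB1 (SD, n = 3). HLA-DRA and HLA-DMA did not differ beyond their SDs. HLA-DOA, HLA-DRB5, HLA-DQB1 and HLA-DQA1 followed, with levels per kilobase of 14 ± 8.54, 6.27 ± 4.13, 4.07 ± 0.54 and 3.27 ± 3.45. Neighbours among these 4 overlapped within their SDs. In control the level per kilobase was 182 ± 64.6 for HLA-DMA, 131 ± 12.7 for HLA-DPB1, 86.0 ± 35.5 for HLA-DPA1, 36.6 ± 19.0 for HLA-DRA, 23.0 ± 9.64 for HLA-DMB, 6.86 ± 4.19 for HLA-DRB1 and 0.890 ± 0.988 for HLA-DOA. Neighbours from HLA-DMA down to HLA-DMB in that order overlapped within their SDs. So HLA-DRA was first by mean level in IFNg and the fourth in control.

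Whether 2 genes moved by different amounts was asked for 8 pairs, by the log2 difference between the genes in each library. With 3 libraries against 3 the exact 2-sided permutation test cannot give a p below 0.1, so none of the 8 could pass 0.05. HLA-DPA1 minus HLA-DPB1 was 2.19, 1.57 and 1.22 in IFNg, against -1.04, -0.02 and -0.62 in control, a shift of 2.22 (exact permutation p = 0.1; 0.267 adjusted over the pairs). HLA-DPA1 was thus above HLA-DPB1 in reads in every IFNg library and below it in every control library. HLA-DMA minus HLA-DMB was 1.23, 0.87 and 1.27 in IFNg, against 2.27, 2.78 and 2.98 in control, a shift of -1.55 with the same exact p. HLA-DRA minus HLA-DMA shifted by 2.36, also without overlap and with the same exact p. The pairs HLA-DRA with HLA-DRB1 (0.73, exact p = 0.5), HLA-DRB1 with HLA-DRB5 (0.53, exact p = 0.6), HLA-DQA1 with HLA-DQB1 (-0.93, exact p = 0.7), HLA-DMA with HLA-DOA (-1.87, exact p = 0.2) and HLA-DRA with CD74 (-0.69, exact p = 0.3) overlapped between groups.

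**Figure D3:**
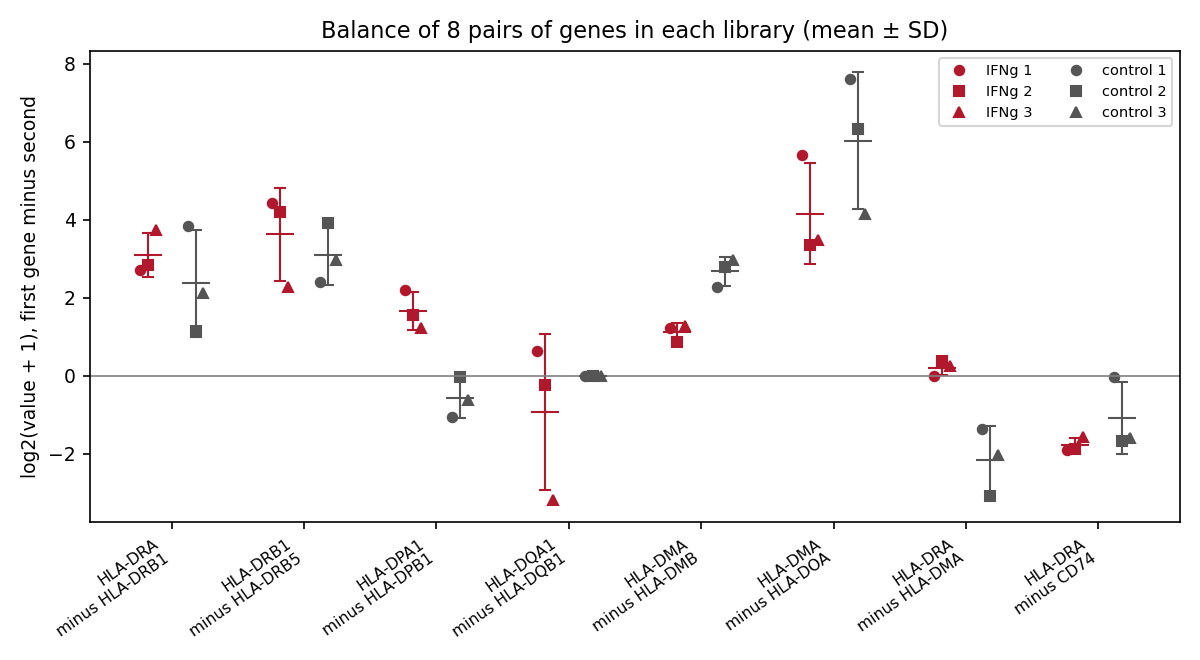
Log2(value + 1) of the first gene minus the second (y axis) for 8 pairs in each library, IFNg in red and control in grey, with mean and SD of the 3 libraries. The groups are apart for HLA-DPA1 minus HLA-DPB1 (shift 2.22), HLA-DMA minus HLA-DMB (-1.55) and HLA-DRA minus HLA-DMA (2.36) and overlap for the other 5 pairs.

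Of 28 listed companion genes of the class II pathway, 23 were found and 21 were tested by limma. Of these, 6 rose, against 3.27% of all genes tested. edgeR called 5 higher, against 3.47% of its genes, and DESeq2 6, against 4.44%. In limma 0 fell, against 1.05% of all genes tested, with 2 (NFYC and CTSF) lower at an unadjusted p under 0.05. By edgeR and DESeq2 0 fell, against 1.22% and 2.09% of their genes. Among 8 regulators, CIITA (log2 difference 5.06 ± 0.17, limma adjusted p = 2.03e-09) and RFX5, the DNA-binding subunit of RFX (0.63 ± 0.09, 0.00119), rose. The RFX subunits RFXAP (0.22 ± 0.22) and RFXANK (-0.02 ± 0.17), the NF-Y subunits NFYA (-0.05 ± 0.10), NFYB (-0.43 ± 0.21) and NFYC (-0.32 ± 0.10) and CREB1 (0.07 ± 0.12) did not pass. Among 12 processing genes, 3 rose. They were CD74, the invariant chain (4.95 ± 0.20), IFI30, a lysosomal thiol reductase gene (5.46 ± 0.29), and CTSS, which encodes cathepsin S, a protease that trims the invariant chain (4.28 ± 0.33), with limma adjusted p up to 5.06e-06. The other 9 did not pass, with log2 differences from -0.61 ± 0.27 for the cathepsin gene CTSF, whose 3 IFNg values all lay below its 3 control values (limma adjusted p = 0.303), to 0.86 ± 1.38 for MARCH1, which had 35 reads over IFNg and 12 over control. The protease genes CTSB (-0.05 ± 0.11) and LGMN (0.08 ± 0.15) were among them. HLA-DOB was the sixth gene that rose.

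**Figure D4:**
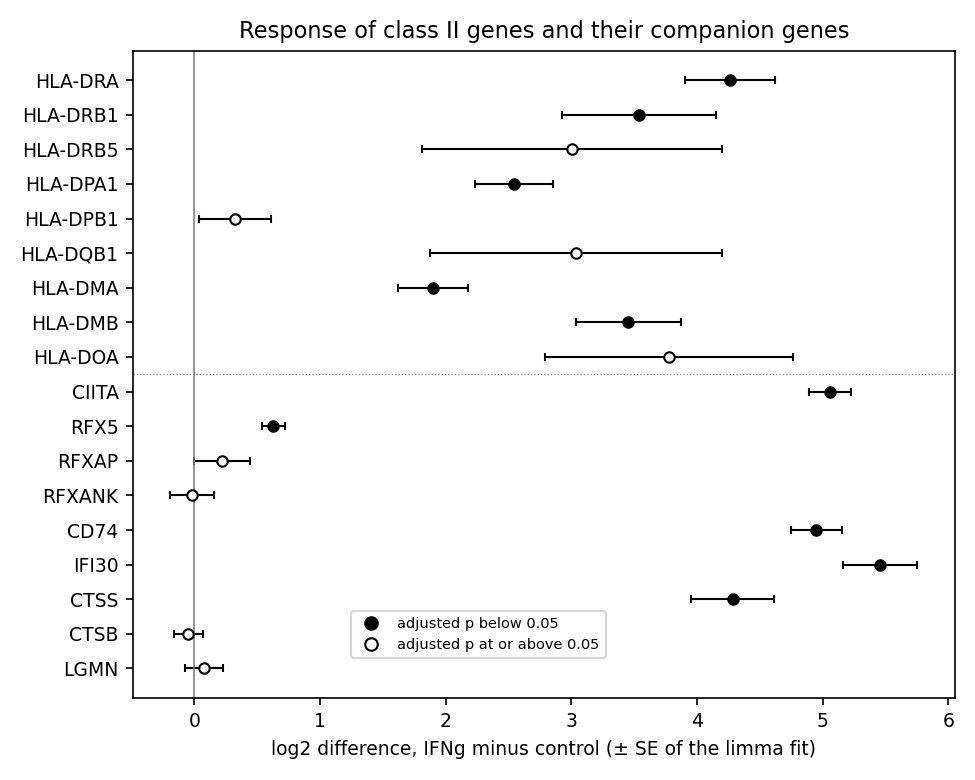
Log2 difference, IFNg minus control, with the SE of the limma fit (x axis) for 9 class II genes and, under the dotted line, 9 companion genes; filled points passed an adjusted p of 0.05. HLA-DPB1 (0.32) lies near 0 beside HLA-DPA1 (2.54), and RFXAP, RFXANK, CTSB and LGMN lie near 0 beside CIITA, CD74, IFI30 and CTSS (4.28 to 5.46).

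For comparison, 5 of 6 listed class I genes rose by limma, against 3.27% of all genes tested. The median log2 difference was 3.02 over the 10 class II genes and 2.13 over the 6 class I genes. With a pseudocount of 5 these medians were 2.19 over the class II genes and 2.12 over the class I genes. The light chain gene B2M rose to 57085 ± 1557 in IFNg, against 26937 ± 2088 in control, and HLA-B to 3497 ± 128 in IFNg, against 493 ± 21.8 in control (SD, n = 3 each). The difference between the class I and class II lists was not tested.

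Over the 6 libraries, the genes whose profile lay nearest to that of HLA-DRA, by Euclidean distance between mean-centred log2 values, were CTSS (0.79), SAMD9L (0.81) and PARP9 (1.04). Those nearest to HLA-DMA were the cathepsin gene CTSO (0.50), PDCD1LG2, which encodes PD-L2 (0.54), and TAPBPL, which encodes a class I peptide editor (0.55). CTSS was 529 ± 55.0 in IFNg and 26.2 ± 2.77 in control, and CTSO was 713 ± 22.4 in IFNg and 238 ± 78.5 in control (SD, n = 3 each).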

How the data were processed

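Total RNA of 6 HT-1080 libraries, 3 IFNg and 3 control, was depleted of ribosomal RNA and sequenced as stranded paired-end libraries, per the labels' protocols. Per the submitters' processing notes the tools were TopHat2 2.0.13, Cuffdiff 2.2.1, Cufflinks and FastQC 0.11.3, and the builds GRCh37 and hg19. The sources used here do not give the counter, or how it took strand and multi-mapping reads. Although the table is named RPKM, the signal deposited by the authors is whole reads divided by 1 size factor per library: 100% of positive values in each library were whole multiples of 1 step, within 0.001 reads. The factors equal median-of-ratios factors. Levels are not divided by length.

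A gene was tested if 3 libraries reached 0.5 (15546 kept, 1641 removed). Under R 4.3.3, log2(value + 1) was fitted with limma 3.58.1 as the main 2-sided test, with an intensity trend and with group alone in the model. Such differences understate changes of low genes. edgeR 4.0.16 (quasi-likelihood, TMM) and DESeq2 1.42.0 were run on the recovered reads as alternatives. The scripts were tested on simulated data with 200 changed genes. A count of 0 over a group was set to 3 reads. Bounds take the IFNg reads as counted. They cover counting error of the control 0, not that of the IFNg reads or the spread between libraries. The genes, lists and tests were chosen with earlier results of these data known. Named genes are all 10 members, the listed companion and class I genes, and the 3 nearest profiles of HLA-DRA and HLA-DMA. Some genes of the lists are not reported here. GENCODE 29 and RefSeq, both on GRCh38, served for names, overlaps, lengths and sequences and were not joined to hg19 coordinates. The HLA alleles of HT-1080 were not compared with either reference.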

Additional observations from a re-analysis of the deposited data

How the results depend on the processing

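HLA-DRA, HLA-DRB1, HLA-DPA1, HLA-DMA and HLA-DMB kept their call and direction in all 16 alternatives, with limma adjusted p up to 0.0477 (HLA-DMA without the intensity trend). HLA-DPB1 was called in 0 of 16. The number of the 10 genes called higher was 5 to 7, with 7 only without the intensity trend, where HLA-DRB5 and HLA-DQB1 were called. HLA-DOA also passed with a pseudocount of 5 (adjusted p = 0.0378), without the filter (0.0485), and with the replicate block (0.00594); over all alternatives its adjusted p ran from 0.00577 to 0.216. HLA-DRB5 (0.0295) and HLA-DQB1 (0.000377) passed only without the intensity trend, and edgeR's filter removed both. Their control values are all 0 and the limma filter kept them only through IFNg, so neither call is support for a rise. The shift of HLA-DRB1 minus HLA-DRB5 turned to -0.28 with a pseudocount of 0.5, and that of HLA-DQA1 minus HLA-DQB1 to 0.20 without both libraries numbered 3; leaving out each library gave -1.71 to 0.20 for HLA-DQA1 minus HLA-DQB1, the positive value without IFNg 3, which has 0 HLA-DQA1 reads. The causes were not tested beyond this. The medians at other pseudocounts and the fold bounds without 1 library were added after seeing the data.

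Over all genes, 509 were higher and 163 lower. These counts were 279 and 41 without the intensity trend, 915 and 549 with the replicate block, and 882 and 599 without both libraries numbered 3, where 1 companion gene (NFYC, -0.39) was called lower. On the recovered reads edgeR called 492 higher and 173 lower, and DESeq2 704 and 332. Leaving out each library gave 330 (IFNg 1) to 847 (control 3) higher and 37 (control 2) to 455 (control 3) lower. Same-numbered libraries correlated at 0.04, 0.02 and 0.11 in their deviations from the group means, and differently numbered libraries at -0.07 to 0.03. The labels do not say that equal numbers share a culture or day, so the main model held group alone. The replicate block was run as an alternative. HLA-DRB5, HLA-DQA1 and HLA-DQB1 had only 18 to 22 reads each over IFNg, which limits what can be said of them. The cause of these low counts was not tested.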

Other observations

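HLA-DQA2, a close relative of HLA-DQA1, had 11 reads over the IFNg libraries and 0 over the control libraries, and the DR beta pseudogene HLA-DRB6 had 24 over IFNg and 0 over control. Both were removed by the filter on low values, and 2.07% of the 50-base windows of HLA-DQA1 are shared with HLA-DQA2. HLA-DRA shared 0 of its 1279 windows with a transcript of another gene.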
